A study of Mus musculus with 12 samples.

Results

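Rpl3l and Rpl3 encode alternative versions of the same protein of the large ribosomal subunit. They were taken as the loci whose gene name field holds Rpl3l or Rpl3, which gave 2 of the 44450 loci listed for each heart library. The members were chosen by their FPKM difference between knockout and control hearts in these same libraries, so their levels are described here without a test. The knockout hearts came from C57BL/6N mice aged 11 weeks in which both Mrpp3 alleles carried loxP sites and a single copy of Cre was expressed from Ckmm, the promoter of muscle creatine kinase. The control hearts came from mice of the same strain and age with the same loxP-flanked alleles and no Cre noted. MRPP3, or PRORP, does the cutting in mitochondrial RNase P, and this Cre acts in heart and skeletal muscle fibres rather than in every cell of the heart. Any effect of Cre itself cannot be told apart from that of the lost gene. Total RNA was sequenced from 3 knockout and 3 control samples after removal of cytoplasmic rRNA.

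Ribosomal protein L3 sits close to the peptidyl transferase centre of the large subunit and joins it early in assembly. Most cells make it from Rpl3, while adult heart and skeletal muscle fibres also make the paralog RPL3L and hold little RPL3. Work in mice has described lower Rpl3l in muscle that is injured or growing, and higher Rpl3 where Rpl3l is deleted.

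Values are FPKM, fragment counts scaled for transcript length and library size, so levels of different genes are compared per length. The files give no read totals. From the steps between the lowest values, the knockout libraries were 2.57, 2.06 and 2.19 times as deep as control replicate 1 (knockout replicates 1 to 3), and the other controls 1.32 and 1.35 times (control replicates 2 and 3). The targeted gene, listed as 1110008L16Rik, had 0.441, 0.701 and 0.555 FPKM in knockouts and 3.49, 2.64 and 3.23 FPKM in controls. Knockout replicate 2 stood apart in atrial and blood transcripts. Its summed FPKM over 6 atrial markers was 14334, against 2072.2 and 2337 in the other knockouts and 42.9 to 122 in controls. No label says that the samples of a group are separate animals, so the spread behind each p-value may be technical.

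Rpl3l was far lower in the knockout hearts. It stood at 8.04, 2.01 and 5.48 FPKM in knockout replicates 1 to 3, against 88.2, 96.7 and 75.2 FPKM in control replicates 1 to 3. Every knockout library lay far below every control, and the groups did not overlap. The means were 5.18 ± 3.03 FPKM in knockouts and 86.7 ± 10.8 FPKM in controls (SD, n = 3 each), so the control mean was 16.7 times the knockout mean. The knockout minus control difference was -4.11 on the log2(FPKM + 0.5) scale, where the added 0.5 shrinks the changes of low genes. By mean FPKM Rpl3l was 7393rd of the 12181 loci tested, those that reached 1 FPKM in 3 or more libraries, in knockouts and 584th in controls. Of those loci, 6 had a more negative difference. The knockouts varied among themselves more than the controls did, with the highest library 4.01 times the lowest in knockouts and 1.29 times in controls. Knockout replicate 2 was the lowest, and without it the difference was -3.60.

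Rpl3l lies at chr17:24727826-24736143 of GRCm38.p6, on the forward strand. The RefSeq table holds 2 promoter windows for it. The one at the start of the whole gene, chr17:24727576-24727875 (250 bases before to 50 after), is shown, and capitals mark the motifs a search found. The other window, inside the gene, was not searched.

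Rpl3l promoter: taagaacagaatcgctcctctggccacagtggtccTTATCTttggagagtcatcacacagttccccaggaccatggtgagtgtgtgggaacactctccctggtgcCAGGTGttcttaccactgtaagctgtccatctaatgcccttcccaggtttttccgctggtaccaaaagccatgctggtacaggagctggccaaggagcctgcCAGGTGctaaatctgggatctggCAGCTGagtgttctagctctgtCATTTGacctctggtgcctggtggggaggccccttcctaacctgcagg

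The search covered 6 motifs on both strands with no overlap among the matches. The E-box CANNTG, bound by basic helix-loop-helix factors, matched 4 times, and 72.3% of the 32851 promoter windows of this length hold it. The GATA-type motif AGATAA matched 1 time as TTATCT, and 11.2% of windows hold it. The letters TATAAA (in 13.6% of windows), the MEF2 core, CTA and TAG with any 4 bases between (3.69%), the MCAT motif CATTCC (14.7%) and the ATF4 and CHOP motif TGATGNAA (3.97%) were not in this window. A match is a description of letters only. No promoter window for Rpl3 was available, so none was searched.

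**Figure D1:**
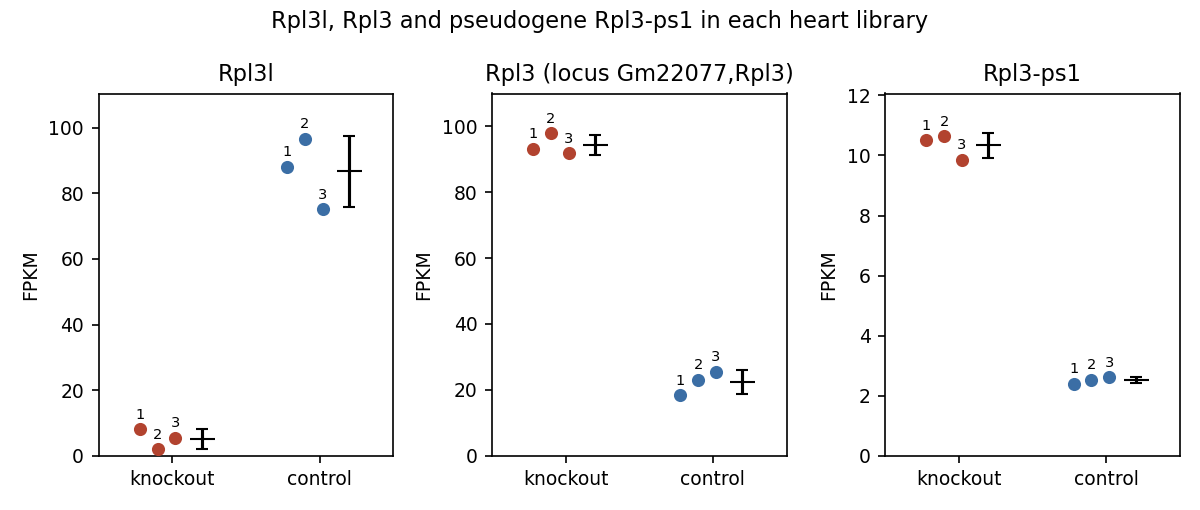
FPKM of Rpl3l, of the Rpl3 locus and of the pseudogene Rpl3-ps1 in each library (points, numbered by replicate), with the mean and SD of 3 libraries as a bar beside them. Knockouts lie at 2.01 to 8.04 FPKM for Rpl3l and 91.9 to 97.8 for Rpl3, and controls at 75.2 to 96.7 for Rpl3l and 18.4 to 25.6 for Rpl3.

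Rpl3, the version made in most tissues, went the other way. Its locus had 93.2, 97.8 and 91.9 FPKM in knockout replicates 1 to 3, against 18.4, 23.1 and 25.6 FPKM in control replicates 1 to 3. All knockouts were high and close together, and the lowest knockout was 3.60 times the highest control. The means were 94.3 ± 3.13 FPKM in knockouts and 22.3 ± 3.66 FPKM in controls (SD, n = 3 each), 4.22 times higher in knockouts, with a log2 difference of 2.07. Rpl3 was 519th of the tested loci by mean FPKM in knockouts and 2368th in controls, and 174 loci had a larger positive difference. The spread among knockouts was smaller than that of Rpl3l, with a coefficient of variation of 3.31% for Rpl3 and 58.5% for Rpl3l.

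The value of Rpl3 is that of a merged locus. Rpl3 spans chr15:80077781-80083406 of GRCm38.p6, and the files join it with Gm22077, a gene name with no entry in the RefSeq table. The part of the FPKM that belongs to Gm22077 cannot be told apart here. Merging can move a value: the Rpl5 locus, joined with the small nucleolar RNA Snord21, had 9.89, 186 and 9.12 FPKM in knockouts and 392, 9.91 and 12.5 FPKM in controls. The Rpl3 locus showed no such jump within a group. Snord83b, a small nucleolar RNA inside the span of Rpl3, has a locus of its own that was listed at 0 in all 3 knockouts and in control replicates 2 and 3, and at 694 FPKM in control replicate 1. Fragments of Rpl3 may also be counted at its pseudogenes. Rpl3-ps1 had 10.5, 10.6 and 9.86 FPKM in knockouts and 2.40, 2.53 and 2.61 FPKM in controls, 11.0 ± 0.291% of the Rpl3 value in knockouts and 11.4 ± 1.48% in controls (SD, n = 3 each). The proportion was about the same in both groups, and reads of the gene and of the copy cannot be told apart with certainty. Rpl3-ps2 stayed at or below 0.248 FPKM.

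Added together, the levels of the pair overlapped between genotypes, while the makeup of the sum did not. The summed FPKM of Rpl3l and Rpl3 was 101.2, 99.9 and 97.4 in knockouts and 107, 119.8 and 100.8 in controls. The ranges overlapped only narrowly, at knockout replicate 1 and control replicate 3. Rpl3l made up 7.95, 2.01 and 5.63% of that sum in knockout replicates 1 to 3, against 82.8, 80.7 and 74.6% in control replicates 1 to 3. No knockout came near a control, and the mean shares were 5.19 ± 2.99% in knockouts and 79.4 ± 4.22% in controls (SD, n = 3 each). Put as a ratio, Rpl3 exceeded Rpl3l by 11.6, 48.8 and 16.8 times in knockouts, while in controls Rpl3l exceeded Rpl3 by 4.80, 4.19 and 2.94 times. Counting Rpl3-ps1 with Rpl3, an alternative chosen after seeing the data, gave Rpl3l shares of 4.71 ± 2.71% in knockouts and 77.6 ± 4.28% in controls. The mean sum was 99.5 ± 1.94 FPKM in knockouts and 109 ± 9.75 FPKM in controls, and this small difference turned round when each library was scaled to a total of 1000000, to 208 in knockouts and 194 in controls.

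**Figure D2:**
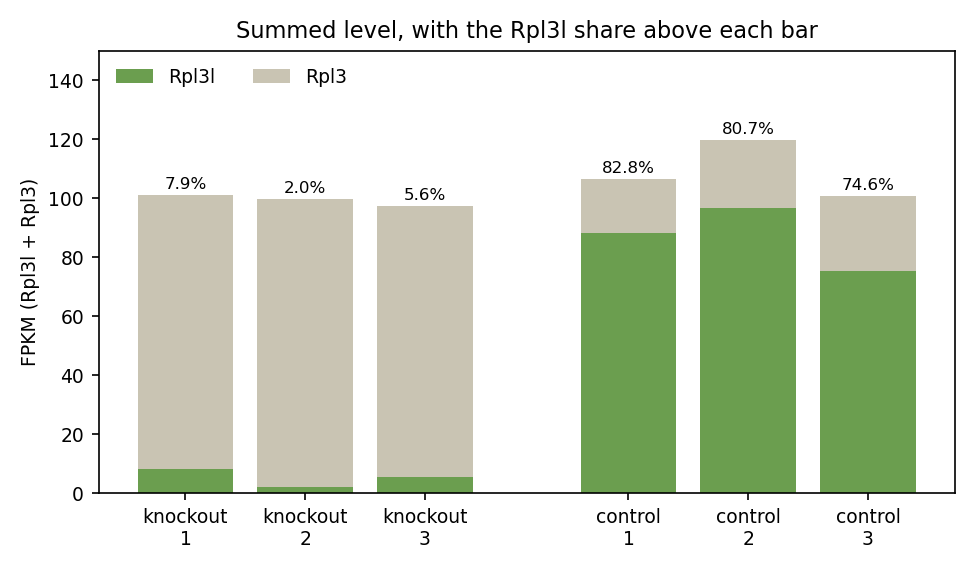
Summed FPKM of Rpl3l (green) and Rpl3 (grey) in each library, with the percentage held by Rpl3l above each bar. The bars reach similar heights, 97.4 to 101 FPKM in knockouts and 101 to 119.8 in controls, while the Rpl3l share is 2.01 to 7.95% in knockouts and 74.6 to 82.8% in controls.

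Many other proteins of the large subunit rose as well, each by less than Rpl3. Of 46 listed genes other than Rpl3 and Rpl3l, 45 were tested, 23 rose, none fell and 22 were not called (limma, Benjamini-Hochberg adjusted p under 0.05 over all loci). At an unadjusted p under 0.05 the counts were 26 higher and 0 lower. Across all 12181 loci 16.1% were called higher, 19.5% lower and 35.7% in either direction. The median log2 difference of the 45 loci was 0.38, against -0.02 over all loci tested. The number of loci called higher was 34 of 45 after scaling each library to the same total, which moved the median over all loci to 0.20, that of the list to 0.62 and the share of all loci called higher to 26.5%. It was 3 without control replicate 1 or 2, where 10.5 and 9.95% of all loci were called higher, and 13 without control replicate 3, knockout replicate 1 or knockout replicate 3. In 34 of the 45 every knockout library lay above every control, while the groups did not overlap, in either direction, at 52.3% of all tested loci.

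Rpl35, a protein near the exit of the nascent chain, averaged 124 ± 20.0 FPKM in knockouts and 59.9 ± 9.69 FPKM in controls (log2 difference 1.04, SE 0.18, limma adjusted p = 0.0048). Rpl27 averaged 7.52 ± 1.09 FPKM in knockouts and 3.48 ± 1.07 FPKM in controls (log2 difference 1.04, limma adjusted p = 0.0086). Rpl36a averaged 14.9 ± 1.48 FPKM in knockouts and 8.16 ± 3.43 FPKM in controls (limma adjusted p = 0.046). Leaving out any library but control replicate 3 removed that call (adjusted p = 0.058 to 0.12). These were the highest-ranked called rises of the list, and the Rpl3 difference of 2.07 lay above all 45. The mean over libraries of the list's median level was 118 FPKM in knockouts and 87.6 FPKM in controls. Rpl3 stood at 0.827, 0.800 and 0.768 of that median in knockouts and at 0.222, 0.277 and 0.264 of it in controls. The sum of Rpl3l and Rpl3 stood at 0.898, 0.816 and 0.814 of it in knockouts. In controls that sum stood at 1.29, 1.44 and 1.04 of the median, with no overlap between the groups. Levels of single ribosomal protein loci ran from 1.45 to 912 FPKM within the list.

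Genes for proteins of the small subunit also rose in part. Of 32 tested loci 15 rose and 1 fell, with a median log2 difference of 0.53, against 16.1% of all loci called higher and 19.5% lower. With single libraries left out, the number higher ranged from 6 (without control replicate 2) to 17 (without knockout replicate 2). In those 2 fits 9.95 and 17.7% of all loci were called higher. It was 9 without control replicate 1 (10.5% of all loci). After scaling to the same total 25 were called higher and 0 lower (median 0.77), where 26.5% of all loci were called higher. Under quantile normalization 21 were higher and 0 lower, against 17.7% of all loci called higher. Rps26 averaged 339 ± 20.9 FPKM in knockouts and 162 ± 13.4 FPKM in controls (log2 difference 1.07, SE 0.15, limma adjusted p = 0.0020). Rps27a, which is made as a fusion with ubiquitin, averaged 9.85 ± 0.690 FPKM in knockouts and 4.87 ± 0.913 FPKM in controls (limma adjusted p = 0.0036). The locus that fell was Rps2, joined with Snora64, at 187 ± 19.8 FPKM in knockouts and 262 ± 20.7 FPKM in controls (limma adjusted p = 0.041). That call was lost under all 3 other scalings and without any single library other than knockout replicate 2. No locus of this list had a log2 difference above that of Rpl3. The highest, Rps16, stood at 1.55 and was not called.

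Other ribosomal protein genes have paralogs of their own. Of 7 such paralogs listed, 5 were tested, 2 rose and none fell (3 higher and 0 lower at an unadjusted p under 0.05). Of all loci, 16.1% were called higher. Rps27l, the paralog of Rps27 known as a p53 target, had 124, 112 and 129 FPKM in knockouts and 63.0, 74.5 and 76.6 FPKM in controls (log2 difference 0.77, SE 0.14, limma adjusted p = 0.0054). Rps4l had 18.3, 19.2 and 25.4 FPKM in knockouts and 11.2, 10.0 and 12.5 FPKM in controls (log2 difference 0.86, limma adjusted p = 0.0059). For both, all knockouts were above all controls.

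Rpl22l1, the paralog of Rpl22, averaged 33.2 ± 12.6 FPKM in knockouts and 24.9 ± 3.41 FPKM in controls (limma adjusted p = 0.30). Rpl36al averaged 74.7 ± 4.16 FPKM in knockouts and 60.9 ± 2.66 FPKM in controls (limma adjusted p = 0.090), and it passed without knockout replicate 2 (adjusted p = 0.036) and under 2 of 3 scalings (0.0071 to 0.25 over the alternatives). Rpl7l1 averaged 13.1 ± 1.28 FPKM in knockouts and 14.5 ± 0.565 FPKM in controls (limma adjusted p = 0.35). Rpl39l, best known from testis, was listed at 0.163, 0.113 and 0.212 FPKM in knockouts and at 0 in every control, the shallower libraries. Rpl10l, also a testis gene, was listed at 0 throughout.

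**Figure D3:**
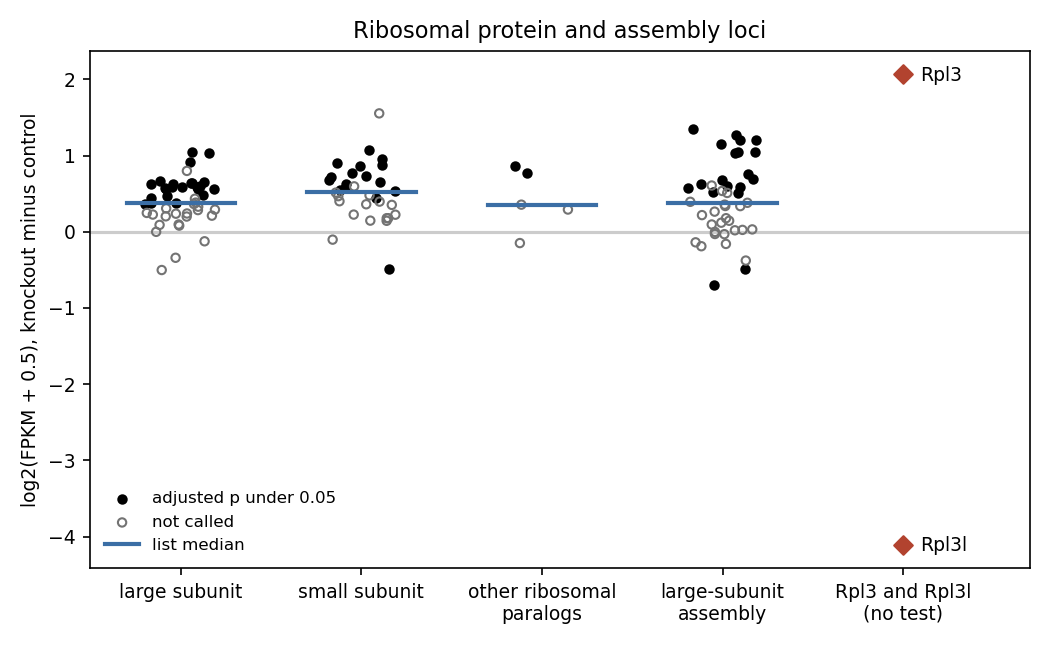
Log2 difference, knockout minus control on the log2(FPKM + 0.5) scale, of each tested locus in 4 lists (filled where the limma adjusted p was under 0.05, open where not called, bar at the list median), beside Rpl3 and Rpl3l (diamonds, no test). Rpl3 at 2.07 and Rpl3l at -4.11 lie beyond every locus of the 4 lists.

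Factors that handle the protein or build it into the subunit were also examined. Grwd1, the chaperone that escorts newly made RPL3, had 9.02, 6.66 and 10.1 FPKM in knockouts and 4.20, 5.28 and 4.57 FPKM in controls (log2 difference 0.80, SE 0.17, limma adjusted p = 0.011). All 3 knockouts were above all 3 controls. Mettl18, which methylates a histidine of RPL3, averaged 1.44 ± 0.158 FPKM in knockouts and 1.73 ± 0.0771 FPKM in controls (limma adjusted p = 0.31). For Mettl18 all 3 knockouts were below all 3 controls. The groups did not overlap, in either direction, at 52.3% of all tested loci. Of 43 large-subunit assembly factors tested, 17 rose, 2 fell and 24 were not called, with a median log2 difference of 0.38. Across all loci 16.1% were called higher and 19.5% lower. The number higher was 13 to 21 with single libraries left out, where 9.95 to 17.7% of all loci were called higher. It was 27 after scaling to the same total, where 26.5% of all loci were called higher. Gnl3 (nucleostemin) averaged 19.7 ± 6.61 FPKM in knockouts and 7.19 ± 0.481 FPKM in controls (log2 difference 1.34, limma adjusted p = 0.0044). Nop16 averaged 13.4 ± 1.57 FPKM in knockouts and 5.27 ± 0.584 FPKM in controls (log2 difference 1.27, limma adjusted p = 0.00082). Eif6, which keeps new large subunits from joining small ones too early, averaged 29.3 ± 5.26 FPKM in knockouts and 12.3 ± 0.604 FPKM in controls (log2 difference 1.20, limma adjusted p = 0.0013). Nle1, a Notchless homolog that acts late in assembly, fell, with 3.98 ± 0.371 FPKM in knockouts and 6.79 ± 0.454 FPKM in controls (limma adjusted p = 0.0047). Rsl24d1, on a locus shared with Khdc3 and Gm20509, fell less (8.86 ± 1.41 FPKM in knockouts, 12.6 ± 1.27 FPKM in controls, limma adjusted p = 0.036), and leaving out any library but knockout replicate 1 removed the call.

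Among 18 genes of rRNA transcription and nucleolar function, 4 rose and none fell (4 and 1 at an unadjusted p under 0.05), near the 16.1% of all loci called higher. After scaling to the same total 9 rose, where 26.5% of all loci were called higher. Myc, a transcription factor that drives ribosome production, had 5.21, 10.3 and 11.7 FPKM in knockouts and 0.490, 0.339 and 0.808 FPKM in controls (log2 difference 3.15, SE 0.31, limma adjusted p = 0.00060). Every knockout was several times above every control. Ncl (nucleolin) averaged 51.0 ± 5.14 FPKM in knockouts and 26.4 ± 2.03 FPKM in controls (limma adjusted p = 0.0020). Polr1e, a subunit of RNA polymerase I, averaged 17.6 ± 3.04 FPKM in knockouts and 9.38 ± 2.50 FPKM in controls (limma adjusted p = 0.018), and its call was lost without knockout replicate 1 (adjusted p = 0.057; 0.0036 to 0.057 over the alternatives).

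Rpl3l is a striated muscle isoform with a widely made counterpart. Set beside it were 12 other pairs, of which 10 also join a muscle form to a more widely made one and 2, Myh6 with Myh7 and Tnni3 with Tnni1, join an adult heart form to another form of striated muscle. For each, the muscle isoform's percentage of the summed FPKM was taken in each library. The muscle isoform's share was lower in every knockout than in every control in all 13 pairs. The Rpl3l pair was chosen for this difference, and the other 12 were listed with earlier results of these data known. Among single loci, the groups did not overlap, in either direction, at 52.3% of all those tested, a measure of levels rather than shares. The change was small in some pairs. Tnni3, for example, held 99.94% of its pair in knockouts and 99.997% in controls. The translation elongation factors eEF1A were closest in kind. Of 10 elongation factor genes tested 5 rose and 1, Eef1a2, fell, against 16.1% of all loci called higher and 19.5% lower. The number higher was 8 after scaling to the same total, where 26.5% of all loci rose. It was 3 with no filter or without control replicate 1 or 3 or knockout replicate 1, where 8 to 12.8% of all loci rose. Eef1a2, the adult muscle and neuron form, held 17.2, 7.32 and 12.9% of its pair with Eef1a1 in knockouts, against 52.6, 55.7 and 51.3% in controls. Knockout replicate 2 was again the lowest. The Eef1a1 locus, which the files join with Gm26377, averaged 1524 ± 424 FPKM in knockouts and 306 ± 20.3 FPKM in controls (log2 difference 2.28, SE 0.24, limma adjusted p = 0.00079). Eef1a2 averaged 203 ± 41.7 FPKM in knockouts and 347 ± 8.46 FPKM in controls (log2 difference -0.80, limma adjusted p = 0.016), and this call was lost without any single control (adjusted p = 0.052 to 0.069). Unlike the Rpl3l and Rpl3 sum, which was 0.912 times the control value in knockouts, the summed level of this pair, the merged locus included, was 2.64 times the control value.

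In the remaining pairs the muscle form kept a larger share. Eno3, muscle enolase, held 63.3 ± 7.81% of its pair with Eno1 in knockouts and 94.8 ± 0.104% in controls. Cox7a1, the muscle form of a cytochrome c oxidase subunit, held 58.4 ± 7.16% of its pair with Cox7a2 in knockouts and 87.0 ± 0.397% in controls. Hk2, a hexokinase, held 37.9 ± 5.36% of its pair with Hk1 in knockouts and 65.3 ± 4.50% in controls. Myh6, the adult myosin heavy chain of mouse heart, held 94.6 ± 5.47% of its pair with Myh7 in knockouts and 99.6 ± 0.416% in controls. The log2 ratio of muscle form to counterpart differed by -6.17, knockout minus control, for Rpl3l and Rpl3, while the other 12 pairs lay between -3.72 (Myh6 and Myh7) and -1.01 (Ckm and Ckb). Among the genes tested one by one, 11 of 12 muscle isoforms fell and 8 of 11 counterparts rose. Across all loci 19.5% were called lower and 16.1% higher. The counterparts Cox7a2 (log2 difference -0.35) and Myh7 (2.74) were not called. Ckb, the widely made creatine kinase, fell, a call lost without any single control and after scaling to the same total. Without control replicate 1, 2 or 3 the number of muscle isoforms called lower was 6, 5 and 5, where 12.6, 11.6 and 12.1% of all loci fell. With no filter it was 6, where 9.45% of all loci fell.

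**Figure D4:**
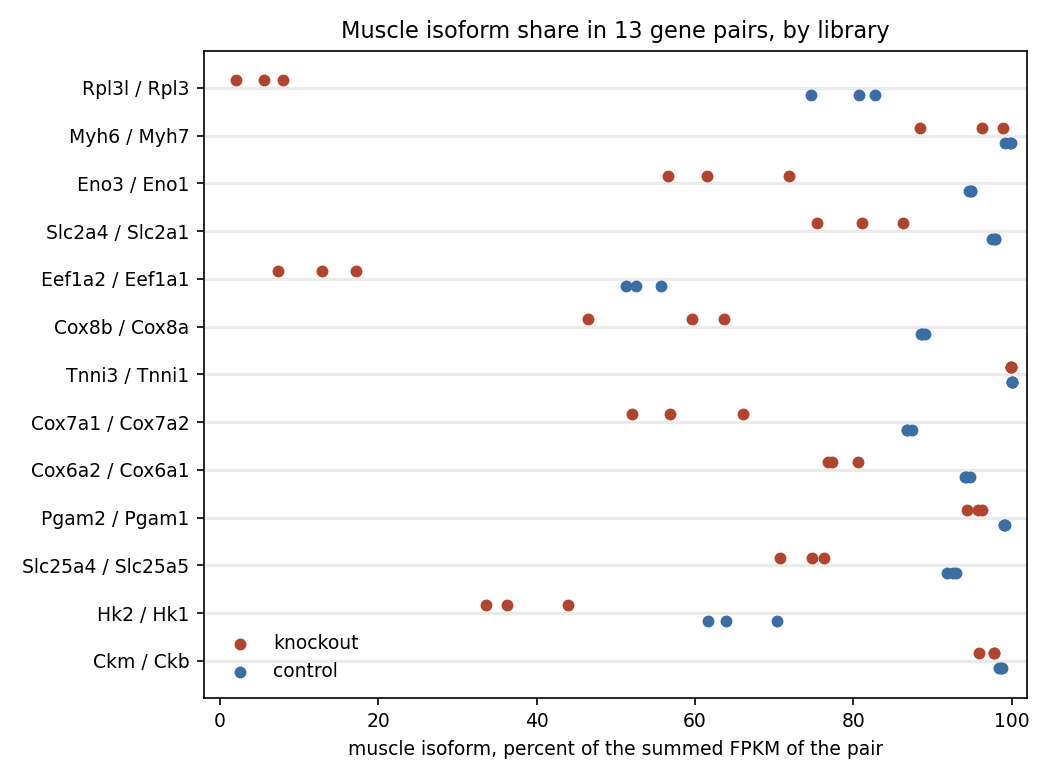
Share of the muscle isoform in the summed FPKM of 13 gene pairs, with 1 point per library (knockouts above controls in each row), ordered by the difference in log2 ratio. Rpl3l goes to 2.01 to 7.95% in knockouts, against 74.6 to 82.8% in controls, and Eef1a2 to 7.32 to 17.2%, against 51.3 to 55.7%.

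Cardiomyocyte markers fell in a number that varied with the scaling, and in bulk tissue fewer cells of a type and less RNA per cell cannot be told apart. Of 12 cardiomyocyte markers 9 fell and none rose (10 and 0 at an unadjusted p under 0.05), with a median log2 difference of -1.25. Across all loci 19.5% were called lower. The number of these markers called lower was 5 after scaling to the same total (11.5% of all loci) and 3 under quantile normalization (median -0.64, 20.4% of all loci). It was 6 under median-of-ratios scaling (17.9%), 2 with no filter (9.45%) and 3 or 4 without any single control (11.6 to 12.6%). None rose under these settings. Their summed FPKM was 16923, 8599.7 and 18410.2 in knockouts and 36237, 39355 and 41719.9 in controls. Ryr2, the calcium release channel, averaged 77.6 ± 11.6 FPKM in knockouts and 269 ± 24.4 FPKM in controls. Pln, phospholamban, averaged 362 ± 171 FPKM in knockouts and 2309 ± 98.6 FPKM in controls. Not called were Mybpc3 (log2 difference -0.29) and Actn2 (-0.12), which overlapped between the groups, and Myl2 (-2.28). Rpl3l was also lower relative to these markers. Per 1000 FPKM of the marker sum it had 0.475, 0.233 and 0.298 FPKM in knockouts and 2.43, 2.46 and 1.80 FPKM in controls. The control mean of that quantity was 6.65 times the knockout mean, with no overlap. Myl2 weighed most in the marker sum, averaging 12097 of 39104 FPKM in controls and 3414 of 14644 FPKM in knockouts. The figure of 6.65 holds for this sum only. Knockout replicate 2 was lowest in both Rpl3l and the marker sum.

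Markers of other cells differed unevenly between the groups, and their part in the Rpl3 difference was not tested. Of 8 fibroblast markers 5 rose and none fell, against 16.1% of all loci called higher and 19.5% lower. The number higher was 3 without any single control, where 9.95 to 10.8% of all loci rose. Those not called were Dcn, lower in every knockout than in any control (log2 difference -0.31), Pdgfra (-0.26) and Lum (0.63). The list summed to 381 to 673 FPKM in knockouts and 335 to 410 FPKM in controls. Of 9 macrophage markers 5 rose (9 after scaling to the same total, where 26.5% of all loci rose). Their sums were 212 to 234 FPKM in knockouts and 146 to 159 FPKM in controls. None of 7 endothelial markers was called by limma (2 lower at an unadjusted p under 0.05), with sums of 175 to 224 FPKM in knockouts and 196 to 206 FPKM in controls. Of 6 atrial markers 4 were tested and 2 rose, Nppa and Dkk3 (1 without any single control, 4 without knockout replicate 3). The sums given above were higher in all 3 knockouts than in any control. In knockout replicates 1 and 3 they were mostly Nppa (1948 and 2327 FPKM). In knockout replicate 3, Myl7 (0.0961 FPKM), Myl4 (3.35 FPKM) and Sln (0 FPKM) lay below control replicate 1 (1.90, 4.09 and 0.767 FPKM). Bmp10 and Dkk3 lay above every control there. Blood markers summed to 622, 21899 and 2011 FPKM in knockouts and 1572 to 2903 FPKM in controls. Proliferation markers, of which 1 of 10 passed the filter on low values and none was called by limma (0 at an unadjusted p under 0.05, 1 called higher without knockout replicate 3), summed to 24.5, 31.9 and 3.19 FPKM in knockouts and 2.83 to 5.01 FPKM in controls. Rpl3l is also made in skeletal muscle. Of 11 skeletal muscle markers 1, Tnni2, was tested, and it fell. It averaged 0.302 ± 0.157 FPKM in knockouts and 1.55 ± 0.254 FPKM in controls (limma adjusted p = 0.0037). Myh4 was at 0 in every library, and the list summed to at most 5.10 FPKM in knockouts and 4.48 FPKM in controls.

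The genes beside the pair differed less between the groups. Before Rpl3l on chromosome 17 lie Ndufb10, a complex I subunit, at 274 ± 51.2 FPKM in knockouts and 536 ± 25.7 FPKM in controls (log2 difference -0.99, limma adjusted p = 0.0073), and Rps2. After it lies Msrb1, a methionine sulfoxide reductase whose gene starts 449 bases beyond Rpl3l, at 62.0 ± 20.1 FPKM in knockouts and 72.3 ± 3.13 FPKM in controls (log2 difference -0.28, limma adjusted p = 0.41), and its difference was 0.026 without knockout replicate 2. Hs3st6, the next gene, was at most 0.0776 FPKM. Beside Rpl3 on chromosome 15, Syngr1 averaged 56.3 ± 8.20 FPKM in knockouts and 36.8 ± 3.05 FPKM in controls (log2 difference 0.60, limma adjusted p = 0.017), a call lost without control replicate 1 or 2 (adjusted p = 0.070 and 0.062). Pdgfb, Cbx7 and Tab1 were not called, with log2 differences of 0.19, -0.37 and -0.32.

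The loci with the most similar profiles were found among 7095 others with a single name and a mean of at least 5 FPKM, by the root mean square distance of log2 values centred on their mean over the 6 libraries. Nearest to Rpl3l was Efnb3, the membrane ligand ephrin-B3, at 0.666, 0.158 and 0.528 FPKM in knockouts and 21.0, 20.8 and 16.9 FPKM in controls (distance 0.32). Hrc, a calcium-binding protein of the sarcoplasmic reticulum, followed at 44.7, 19.2 and 42.1 FPKM in knockouts and 358, 351 and 333 FPKM in controls (distance 0.41). In both, as in Rpl3l, knockout replicate 2 was the lowest library. Pla2g5, A530016L24Rik and Myot came next, at distances of 0.48 to 0.52. Nearest to Rpl3 was Qsox1, a sulfhydryl oxidase, at 32.3, 27.4 and 30.8 FPKM in knockouts and 6.52, 6.66 and 8.57 FPKM in controls (distance 0.13). Rpl3-ps1 came second (0.16), followed by Nhp2, a protein of small nucleolar ribonucleoproteins, Lars, the leucyl-tRNA synthetase, and Bgn, the matrix proteoglycan biglycan (0.18 to 0.20). These distances rest on 6 libraries in which the genotype difference dominates, and they are given as a description.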

How the data were processed

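Only the 6 total RNA libraries were analysed here; 6 further libraries of mitochondrial RNA ends were not used here. The deposited values are FPKM per locus, 1 library per file, per the file headers and names. Per the submitters' processing notes the named tools were HISAT2 2.0.1, HISAT 0.1.6 and StringTie 1.1.0, with Cuffdiff and Cufflinks 2.2.1, bedtools, Picard 1.23 and SAMtools 1.3, and the builds were mm10 and GRCm38. What each did, which annotation was used, and how scaling or strand was handled is not given in the sources used here. Of 44450 loci, 950 carry several gene names. Depth is known only as a ratio, from the most frequent ratio of low values at noncoding loci, so counting intervals are left out.

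Tests used log2(FPKM + 0.5) and limma 3.58.1 in R 4.3.3 (mean-variance trend, two-sided, Benjamini-Hochberg over the 12181 loci reaching 1 FPKM in 3 or more libraries, threshold 0.05). The fit was tested on simulated data. No count test was run on FPKM. Members and gene lists were chosen with earlier results of these data known. The genes named are the pair, the targeted gene, all listed ribosomal paralogs and handlers and both members of each isoform pair. Also named are up to 3 called members in each direction of the other lists, 5 nearest profiles each and 2 neighbours on each side. The text prints examples of these. Rps16, Rpl5, Rpl3-ps1, Rpl3-ps2, Snord83b, Mybpc3, Actn2, Myl2, Dcn, Pdgfra and Lum were added after their values were seen. Rpl13 was not analysed here, and Rack1 is listed under its older name Gnb2l1. Sequences and positions are from RefSeq GRCm38.p6. Alternatives were another pseudocount (0.1 or 1), no filter, 3 scalings, no trend, a replicate block and leaving out each library.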

Additional observations from a re-analysis of the deposited data

How the results depend on the processing

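The Rpl3l difference kept its sign and stayed within the spread between replicates in all 12 alternatives (-4.49 to -3.60), as did the Rpl3l share difference in 7 (-76.6 to -72.5 percentage points). Of the 12, the replicate block leaves the difference unchanged by design. Rpl3 ranged from 1.93 to 2.31, the highest with all libraries set to one sum. The summed level of the pair changed sign under that scaling, with a difference of 13.9 on the scaled values against -9.54 FPKM. The same scaling gave 3229 loci higher and 1400 lower, and turned Rpl7l1 to 0.075. Msrb1 ranged from -0.45 to 0.026 with single libraries left out, the highest without knockout replicate 2. With single libraries left out, 1212 to 2153 loci were higher, 1409 to 2389 lower, 3 to 23 large-subunit protein genes called and 54 to 94 loci of the other lists called. Large-subunit calls were 14 of 45 with no filter, where 8% of all loci were called higher. They were 19 of 32 on loci with 1 name, an alternative chosen after seeing the data.

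No shared deviation of same-numbered samples was seen (correlations of -0.083, -0.064 and -0.0063 over loci). Samples with different numbers had correlations of -0.080 to 0.12. With 3 samples per group these values cannot exclude a pairing, and the labels state none. With the replicate block 8 large-subunit protein genes were called, and 1536 loci were higher and 1807 lower. With it 9 small-subunit genes were called higher, and 7 muscle isoforms and 5 cardiomyocyte markers lower. In this balanced layout the block cannot change a difference of means, so the Rpl3l and Rpl3 differences are the same by design. Of 55 genes followed across the alternatives, 47 were called and 39 kept the call in all 14. Not all of the 55 are printed above, and some printed genes are not among them. Of the latter, Myh6 kept its call in 7 and Ckb in 9 of the 14 alternatives. The cause of the lost calls was not tested. The controls were shallower, so low values such as Rpl39l at 0 are less certain there.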
